A study of Mus musculus with 6 samples.

Results

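The genes described here encode NRF2, its inhibitor KEAP1, and enzymes of the antioxidant and glutathione systems. They were chosen by symbol (Nfe2l2, Keap1, Nqo1, Hmox1, Gclc, Gclm, Gsr, Txnrd1, Srxn1 and Gpx4), and all 10 were found among the 52636 genes of the count table. RNA was sequenced from embryoid bodies (EBs), aggregates of differentiating embryonic stem cells (ESCs), of the mouse ESC line E14. Samples comprised 3 replicates of wild type (WT) EBs and 3 replicates of Tnfaip2-/- EBs, all harvested on day 3 of differentiation. The Tnfaip2-/- line is a single CRISPR-Cas9 clone with a premature stop codon, compared with its parental line, so genotype and clone cannot be told apart. Leukemia inhibitory factor and β-mercaptoethanol, a reducing thiol, are listed for the ESC medium of both genotypes and not for the differentiation medium. Total counts were 22987433, 22489903 and 23804489 for WT EBs and 22480962, 21765931 and 21986960 for Tnfaip2-/- EBs.

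NRF2, the product of Nfe2l2, is a transcription factor that KEAP1 holds in the cytoplasm and passes to a CUL3 ubiquitin ligase for degradation. When oxidants or electrophiles modify cysteines of KEAP1, NRF2 escapes, pairs with a small MAF protein and binds antioxidant response elements near genes for glutathione synthesis, thioredoxin recycling, quinone reduction and heme breakdown. This control acts largely on the NRF2 protein, which RNA counts do not measure.

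Tnfaip2 (ENSMUSG00000021281), the edited gene, was counted at 7, 4 and 7 in WT EBs and at 0, 2 and 2 in Tnfaip2-/- EBs. These counts were too low for the test, and those of the Tnfaip2-/- EBs were all under the 3 counts taken as the detection floor. Genotypes were compared for the 17849 genes that passed an expression filter, by the quasi-likelihood test of edgeR with p-values adjusted after Benjamini and Hochberg, and a gene was called at an adjusted p below 0.05. Between replicates the biological coefficient of variation was 0.0215, so that small differences could be called. Levels are given as CPM, counts per 1000000 counts after normalization.

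All 10 genes were tested and 8 were called, or 80%, beside 67.7% of all tested genes. Hmox1, Srxn1, Gsr, Keap1, Nqo1 and Gpx4 were higher in Tnfaip2-/- EBs (6 of 10, beside 34% of all tested genes), and Txnrd1 and Gclm were lower (2 of 10, beside 33.7%). Gclc and Nfe2l2 were not called. In the 8 called genes, no WT sample overlapped with a Tnfaip2-/- sample, which was so for 69.4% of all tested genes. The median log2 fold change of the 10 genes was 0.29, and the median of its absolute value 0.35, beside 0.00 (0.003) and 0.30 over all tested genes. A test against a fold change of 1.5 called Hmox1 and Srxn1, 2 of 10 genes, beside 15.7% of all tested genes, but the call of Srxn1 was lost in most alternatives, as given with that gene. The share of called genes was near that of all tested genes and is not in itself a result about these 10, so each gene is described on its own. The samples are bulk RNA from mixed cells, in which fewer cells of a type and less RNA per cell cannot be told apart.

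**Figure D1:**
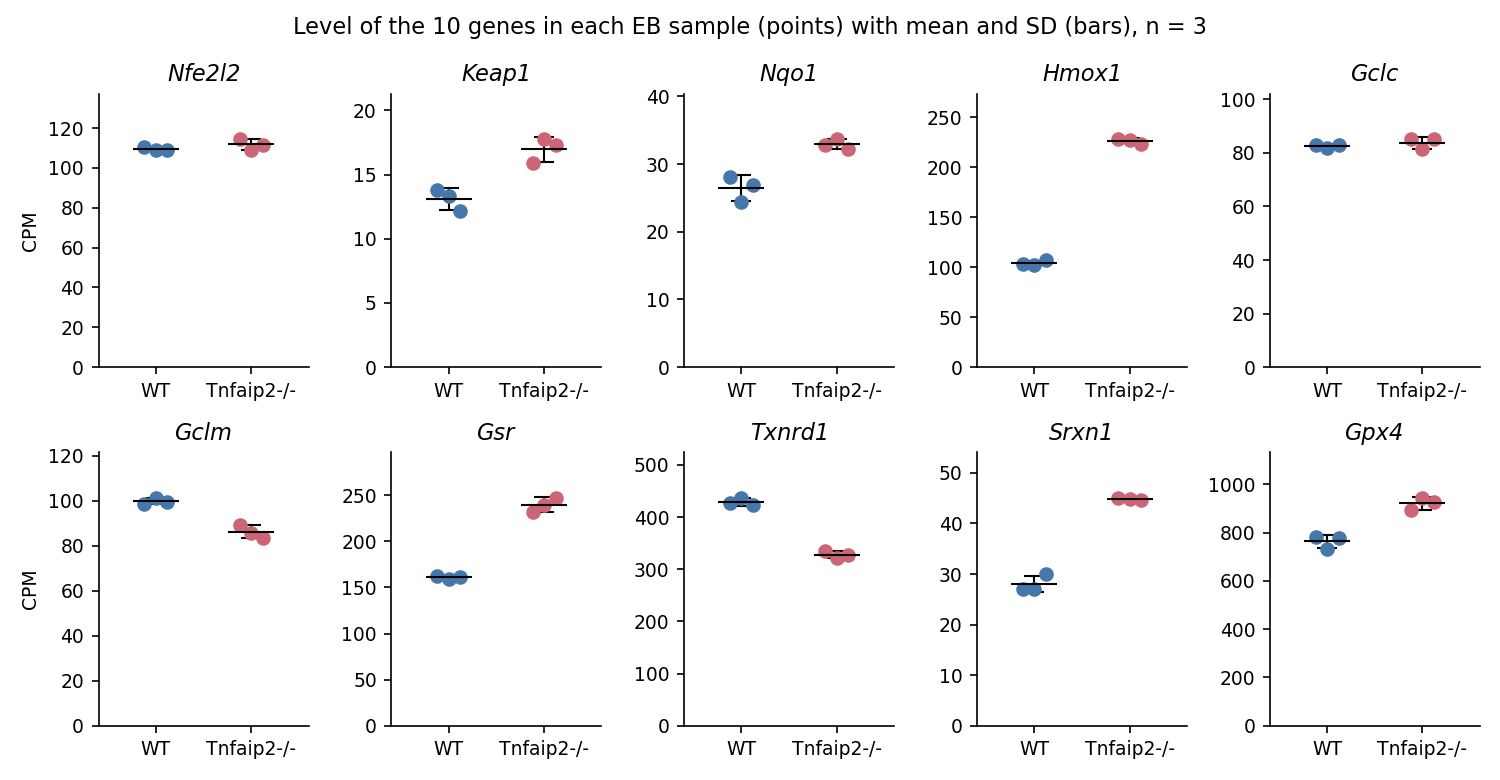
Level of each of the 10 genes in CPM (vertical axes from 0) in the 3 WT and 3 Tnfaip2-/- EB samples (points), with the mean and SD (bars). The Tnfaip2-/- samples of Hmox1 lie between 224 and 228 CPM and the WT samples between 102 and 107 CPM, whereas the samples of Nfe2l2 and Gclc overlap.

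The sequences near the starts of these genes were searched for the letters of antioxidant response elements, because the genes are commonly grouped by this element and yet differed in direction. Windows from 250 bases before to 50 bases after each start, from RefSeq on GRCm38.p6, covered 7 of the 10 genes in 12 windows. Gpx4 had 4 of these windows and Txnrd1 had 3. Sequence outside the windows was not searched, so a gene without a match may still have the element elsewhere. Hmox1, Gclc and Gsr were not analysed here in this respect. On either strand, the core TGACNNNGC occurred in 4 of the 12 windows, which belong to 4 of the 7 genes, and in 12.4% of all 32851 windows. The longer form TGACTCAGC, which contains this core and the shorter TGANTCA, occurred in 0 of the 12 windows and in 0.454% of all windows. TGANTCA, which reads as itself on the other strand and is also the core of AP-1 sites, occurred in 1 of the 12 windows, that of Srxn1, and in 7.81% of all windows. The stretches before the start that hold these letters are shown 5′ to 3′ on the strand of the gene, with the match in capitals. Srxn1 (chr2:152105406-152105501, + strand) has TGANTCA at 2 places before its start, at -102 and at -45. The core lies at -134 in Gclm (chr3:122245407-122245447, + strand), at -92 of an inner start of Txnrd1 within an intron of its longest transcript (chr10:82859098-82859138, + strand), and at -240 in Nfe2l2 (chr2:75704879-75704913, - strand), where the opposite strand holds an exon of the noncoding gene E030042O20Rik.
Srxn1: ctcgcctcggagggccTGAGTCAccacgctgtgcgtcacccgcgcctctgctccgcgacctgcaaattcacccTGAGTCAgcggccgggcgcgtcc
Gclm: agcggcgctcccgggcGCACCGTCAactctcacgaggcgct
Txnrd1: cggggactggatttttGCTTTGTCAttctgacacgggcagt
Nfe2l2: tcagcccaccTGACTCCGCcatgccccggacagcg
Srxn1 also holds the core from 29 to 37 bases after its start. These letters thus stand near a gene that was higher in Tnfaip2-/- EBs (Srxn1), 2 that were lower (Gclm and Txnrd1) and 1 that was not called (Nfe2l2). A match is a description of letters, not a site or a cause, and binding of NRF2 was not measured.

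Nfe2l2 (ENSMUSG00000015839, chr2:75675513-75704641, - strand), which encodes NRF2, was at 110.5, 109 and 109 CPM in the WT EBs and at 114.5, 109 and 112 CPM in the Tnfaip2-/- EBs. The samples of the genotypes overlapped. Its log2 fold change was 0.03, with an approximate 95% interval from -0.03 to 0.09 and an adjusted p of 0.41 in edgeR's quasi-likelihood test. Keap1 (ENSMUSG00000003308, chr9:21229730-21239361, - strand), whose product marks NRF2 for degradation, was at 13.8, 13.3 and 12.1 CPM in the WT EBs and at 15.9, 17.8 and 17.3 CPM in the Tnfaip2-/- EBs. Each Tnfaip2-/- sample lay above each WT sample. The difference was 1.3-fold, or 0.38 on the log2 scale (standard error 0.0702, adjusted p = 7.11e-06, edgeR). An antisense gene, Gm16754, covers part of the Keap1 exons and was itself counted at 10 to 14 in the WT EBs and at 15 to 27 in the Tnfaip2-/- EBs. Because the library kit does not preserve strand, reads of both genes cannot be told apart where they overlap. The part of this overlap in the Keap1 difference was not tested.

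Within each sample, the ratio of Nfe2l2 to Keap1 counts does not depend on library size. It was 8.03, 8.2 and 8.98 in WT EBs and, in Tnfaip2-/- EBs, 7.2, 6.15 and 6.47, without overlap. On the log2 scale the ratio fell by 0.35, with a two-sided exact permutation p of 0.1, the smallest that 3 against 3 samples allow. Among 13 further regulators and partners of NRF2, 6 were higher, 3 lower and 4 not called. The share called was 69.2%, beside 67.7% of all tested genes, and the median log2 fold change was 0.07. Sqstm1, which encodes p62, an autophagy receptor that binds KEAP1, was at 206, 208 and 203 CPM in the WT EBs and at 439.6, 452 and 453 CPM in the Tnfaip2-/- EBs. Every Tnfaip2-/- sample was thus above every WT sample, and the log2 fold change was 1.12 (adjusted p = 7.97e-36, edgeR). Of its exon sequence, taken as windows of the read length, 15.5% is shared with the antisense gene Mrnip, which was counted at 109 to 149 per sample. Nfe2l3, a relative of Nfe2l2, rose from 1.41, 1.74 and 1.53 CPM to 6.43, 6.85 and 6.67 CPM, or 2.09 on the log2 scale (adjusted p = 5.47e-18, edgeR). Nfe2l1, the other relative and the most abundant gene of this list after Sqstm1, was not called (log2 fold change -0.03).

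Of the small MAF genes, whose products pair with NRF2, Maff had a log2 fold change of 0.62 and Mafg one of 0.08, and Mafk was not called (-0.19). The call of Mafg was lost with DESeq2, without the filter, and when WT replicate 3 or Tnfaip2-/- replicate 1 or 2 was left out (log2 fold changes from 0.05 to 0.07). Bach1, a repressor that competes with NRF2 for the same elements, had a log2 fold change of -0.12, and its call was lost without Tnfaip2-/- replicate 2 (-0.09). Cul3, the scaffold of the ligase that KEAP1 serves, was higher (0.30), and Rbx1, its RING subunit, lower (-0.14).

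**Figure D2:**
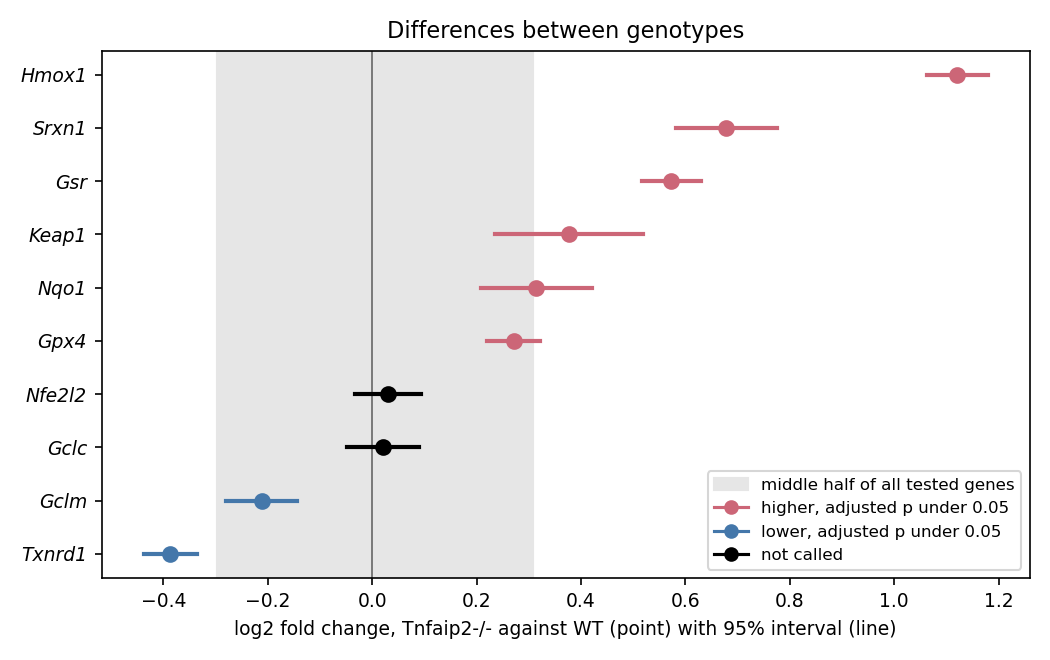
Log2 fold change of each of the 10 genes in Tnfaip2-/- against WT EBs (points) with its approximate 95% interval (lines), and the range from the lower to the upper quartile of all 17849 tested genes (grey, -0.30 to 0.31). Hmox1, Srxn1, Gsr, Keap1 and Nqo1 lie above this range, Txnrd1 lies below it, and Gpx4, Nfe2l2, Gclc and Gclm lie within it.

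Hmox1 (ENSMUSG00000005413, chr8:75093621-75100589, + strand) encodes heme oxygenase 1, which cleaves heme into biliverdin, carbon monoxide and iron. It was at 103, 102 and 107 CPM in the WT EBs and at 228, 227 and 224 CPM in the Tnfaip2-/- EBs. Both groups were tight and far apart (means 104 ± 2.42 and 226.5 ± 2.40 CPM, SD, n = 3), and the fold change was the largest of the 10 genes. The fold change was 2.17, on the log2 scale 1.12 with an interval from 1.06 to 1.18 (adjusted p = 1.14e-33, edgeR), and the gene was also called in the test against 1.5-fold (adjusted p = 5.79e-22). Hmox2, which encodes the constitutive heme oxygenase, had a log2 fold change of 0.34, but 41.7% of its exon sequence is shared with other genes. For the reduction of biliverdin to bilirubin, Blvra had a log2 fold change of 0.68 (adjusted p = 3.14e-08, edgeR) and Blvrb was not called (0.02).

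Nqo1 (ENSMUSG00000003849, chr8:107388225-107403206, - strand), which encodes a quinone reductase widely used as a readout of NRF2 activity, changed less than Hmox1. It was at 28.1, 24.4 and 27 CPM in the WT EBs and at 32.9, 33.7 and 32.3 CPM in the Tnfaip2-/- EBs. The groups did not overlap, and the log2 fold change was 0.31 (standard error 0.0528, 1.24-fold, adjusted p = 1.15e-06, edgeR).

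Glutathione is made in an ATP-dependent reaction that joins glutamate and cysteine, followed by the addition of glycine. The enzyme of the first and rate-limiting step, glutamate-cysteine ligase, consists of a catalytic subunit encoded by Gclc and a modifier subunit encoded by Gclm. Gclc (ENSMUSG00000032350, chr9:77754535-77794485, + strand) was at 82.9, 81.9 and 83 CPM in the WT EBs and at 85, 81.3 and 85.1 CPM in the Tnfaip2-/- EBs. The samples overlapped, and the log2 fold change of 0.02 had an interval from -0.05 to 0.09 (adjusted p = 0.6, edgeR). Gclm (ENSMUSG00000028124, chr3:122245557-122270732, + strand) was at 98.7, 101 and 99.4 CPM in the WT EBs and at 89.3, 85.6 and 83.5 CPM in the Tnfaip2-/- EBs. All Tnfaip2-/- samples were below all WT samples, 1.16-fold on average, and the log2 fold change was -0.21 (adjusted p = 4.04e-07, standard error 0.0337, edgeR). Of the Gclm exon sequence, 4.54% is shared with other genes, among them Gm17494 on the opposite strand, which had between 1196 and 1285 counts in WT EBs and between 1221 and 1257 in Tnfaip2-/- EBs. The ratio of Gclc to Gclm counts was 0.84, 0.809 and 0.835 in WT EBs and, in Tnfaip2-/- EBs, 0.952, 0.95 and 1.02. It was 1.18-fold higher in the latter, without overlap, at a two-sided exact permutation p of 0.1, again the smallest possible. The median log2 fold change of all tested genes was -0.20 on chromosome 3, which holds Gclm, and 0.09 on chromosome 9, which holds Gclc. Gclm was thus near the median of its chromosome, and the part of these medians in the ratio was not tested.

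Gsr (ENSMUSG00000031584, chr8:33652523-33698163, + strand) encodes glutathione reductase, which returns oxidized glutathione to its reduced form with NADPH. Its level was 162.5, 159 and 162 CPM in WT EBs and, in Tnfaip2-/- EBs, 231, 239.9 and 247.5 CPM. The lowest Tnfaip2-/- sample was well above the highest WT sample (means 161 ± 1.79 and 239.6 ± 8.03 CPM, SD, n = 3). The fold change of 1.49 corresponded to a log2 fold change of 0.57 with an interval from 0.52 to 0.63 (adjusted p = 9.14e-23, edgeR), and the gene was not called in the test against 1.5-fold.

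Among 14 genes of glutathione synthesis, breakdown and recycling, 5 were higher, 5 lower and 4 not called, or 71.4% called beside 67.7% of all tested genes, with a median log2 fold change of 0.05. Cth and Cbs encode the enzymes of transsulfuration, by which cells make cysteine from homocysteine. Cth was at 31, 27.3 and 28 CPM in the WT EBs and at 5.33, 3.83 and 4.1 CPM in the Tnfaip2-/- EBs. Its groups were widely separated, and the log2 fold change was -2.70 (adjusted p = 3.63e-30, standard error 0.0855, edgeR). Cbs was at 14.4, 14.3 and 15 CPM and at 7.79, 6.76 and 7.08 CPM, respectively, or -1.02 on the log2 scale (adjusted p = 2.68e-15). Both subunits of the cystine importer were lower as well, Slc7a11 with a log2 fold change of -0.37 and Slc3a2 with one of -0.37, the latter being the most abundant gene of the list. Gss, which encodes the enzyme that adds glycine, had a log2 fold change of 0.66, although 10.2% of its exon sequence is shared with other genes. Of the genes of glutathione breakdown, Chac1 had a log2 fold change of -0.99, Oplah one of 0.73 and Ggt7 one of 0.49, whereas Ggct (-0.07), Ggt1 (0.09) and Chac2 (0.01, of either sign among the alternatives) were not called. The glutaredoxins, which use glutathione to reduce disulfides or to carry iron-sulfur clusters, were split between Glrx (0.55) and Glrx3 (0.52) on the higher side and Glrx5 (-0.64) on the lower side, and 15.0% of the Glrx3 exon sequence is shared with other genes. Glrx2 was not called (0.12), but was called without normalization factors (0.15) and without WT replicate 1 (0.19) or Tnfaip2-/- replicate 2 (0.16).

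**Figure D3:**
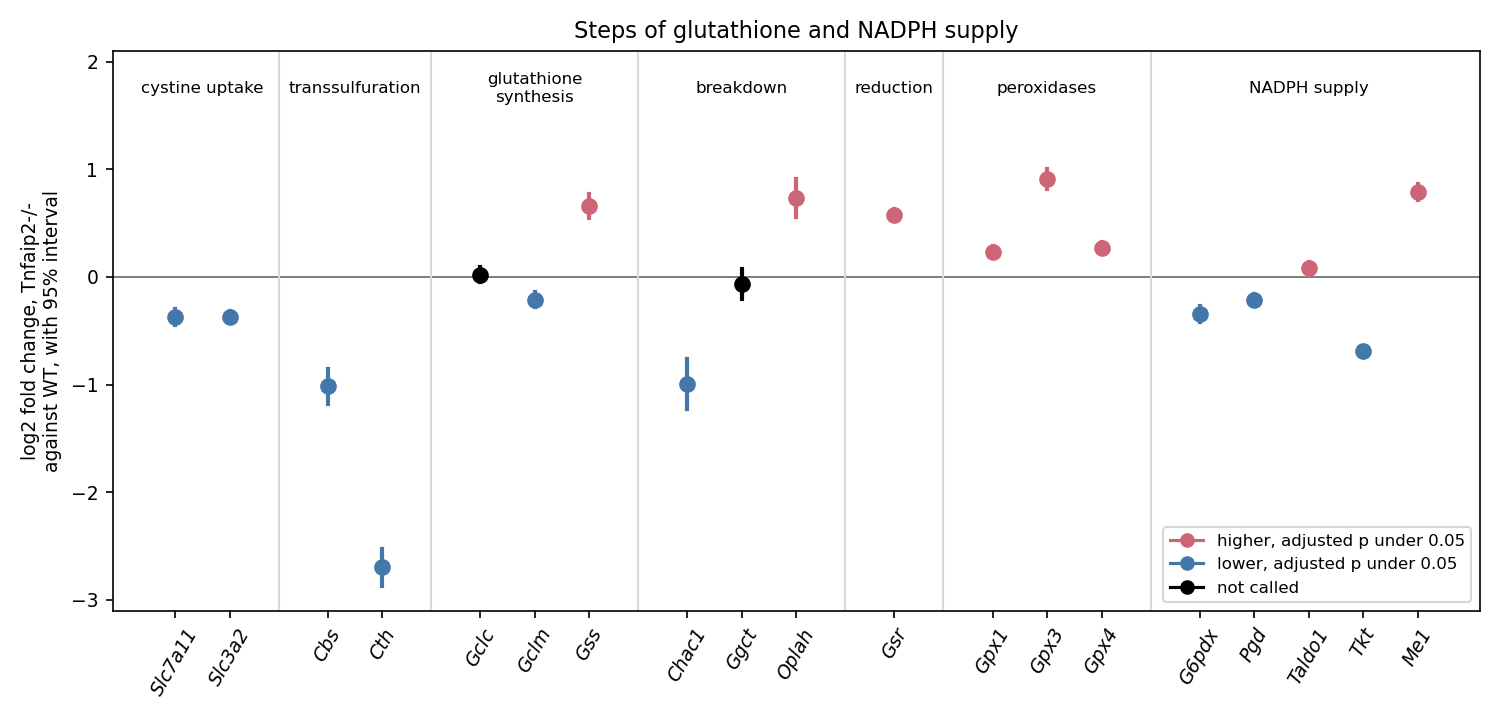
Log2 fold change in Tnfaip2-/- against WT EBs (points) with its approximate 95% interval (lines) for genes of glutathione and NADPH supply, ordered by step. The genes shown are a selection. Cystine uptake and transsulfuration lie below 0 (Cth at -2.70), Gclc lies at 0.02, and Gsr (0.57), Gpx1, Gpx3 and Gpx4 lie above 0. Gpx7 and Gpx8, also peroxidases, were lower (-0.35 and -0.68) and are not shown. In synthesis, Gclm lies below 0 (-0.21) and Gss above it (0.66). For NADPH, G6pdx, Pgd and Tkt lie below 0, and Taldo1 and Me1 above it.

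Txnrd1 (ENSMUSG00000020250, chr10:82833951-82897712, + strand) encodes thioredoxin reductase 1, the cytosolic selenoenzyme that keeps thioredoxin reduced. It was at 426, 437 and 423 CPM in the WT EBs and at 335, 321 and 328 CPM in the Tnfaip2-/- EBs. All Tnfaip2-/- samples were below all WT samples, opposite to Gsr, the reductase of the glutathione system (means 429 ± 7.59 and 328 ± 6.62 CPM, SD, n = 3). WT EBs were 1.31-fold higher, which is a log2 fold change of -0.39 with an interval from -0.44 to -0.34 (adjusted p = 2.22e-18, edgeR).

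Srxn1 (ENSMUSG00000032802, chr2:152105516-152111376, + strand) encodes sulfiredoxin, which repairs overoxidized peroxiredoxins. It was at 27.1, 27.1 and 30 CPM in the WT EBs and at 45.1, 44.9 and 44.7 CPM in the Tnfaip2-/- EBs. The Tnfaip2-/- samples lay close together and above all WT samples, of which replicate 3 was the highest (means 28 ± 1.67 and 44.9 ± 0.214 CPM, SD, n = 3). The fold change was 1.6, a log2 fold change of 0.68 with an interval from 0.58 to 0.78 (adjusted p = 5.16e-17, edgeR). In the test against 1.5-fold its adjusted p of 0.0495 was just below the threshold, and the range over the alternatives was 0.0132 to 1. That call was lost when WT replicate 1 (0.251) or 2 (0.211) or Tnfaip2-/- replicate 1 (0.09), 2 (0.0782) or 3 (0.0997) was left out. Among other alternatives, it was lost with DESeq2, the legacy form of the fit, relative log expression factors or no filter.

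Of 13 thioredoxin, peroxiredoxin and sestrin genes, 5 were higher and 8 lower, or 100% called beside 67.7% of all tested genes. Their median log2 fold change was -0.21. Peroxiredoxins are served by sulfiredoxin and thioredoxin. Prdx2, the most abundant gene of this list, was at 477, 469.7 and 475 CPM in the WT EBs and at 306.5, 317 and 308 CPM in the Tnfaip2-/- EBs. Its log2 fold change was -0.61 (adjusted p = 4.61e-26, edgeR), and 11.9% of its exon sequence is shared with other genes. Prdx6 and Prdx3 had log2 fold changes of -0.41 and -0.38, and Prdx4, the peroxiredoxin of the endoplasmic reticulum, one of 0.19. Prdx5 was lower (-0.11) with overlapping samples, 15.5% of its exon sequence is shared with another gene, and its call was lost with DESeq2 (-0.12), without normalization factors (-0.08) and without WT replicate 3 (-0.08) or Tnfaip2-/- replicate 1 (-0.10). Prdx1, an NRF2 target with 1217 to 1340 CPM, was not called (log2 fold change -0.04). It was called without the filter (-0.06) and without WT replicate 2 (-0.07). Txn1, which encodes cytosolic thioredoxin, had a log2 fold change of 0.09, while Txn2 and Txnrd2, the mitochondrial counterparts of Txn1 and Txnrd1, had log2 fold changes of -0.24 and -0.39. Sesn2 and Sesn3 were higher (0.42 and 0.63) and Sesn1 was lower (-0.30).

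Gpx4 (ENSMUSG00000075706, chr10:80047166-80056439, + strand) encodes the selenium-dependent glutathione peroxidase that reduces lipid hydroperoxides in membranes and thereby protects from ferroptosis. Its level was 781, 734 and 777 CPM in WT EBs and, in Tnfaip2-/- EBs, 892, 945.5 and 928 CPM. The groups did not overlap, and the log2 fold change was 0.27 (standard error 0.025, 1.21-fold, adjusted p = 3.14e-13, edgeR). Of the 51-base windows of its exons, the length of a read, 34.5% also occur in other genes, among them the pseudogene Gpx4-ps2, so that its level is uncertain. Gpx4-ps2 was counted at 5518 to 6134 in the WT EBs and at 6835 to 7132 in the Tnfaip2-/- EBs, a log2 fold change of 0.30. The sum of both was 1042, 981 and 1038 CPM in WT EBs and, in Tnfaip2-/- EBs, 1193, 1271 and 1248 CPM, which did not overlap either and differed 1.21-fold.

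Of 21 further glutathione peroxidases and transferases, 18 were tested, of which 5 were higher, 9 lower and 4 not called. This is 77.8% called, beside 67.7% of all tested genes, with a median log2 fold change of -0.18. Gpx1, the abundant cytosolic peroxidase, had a log2 fold change of 0.23 (adjusted p = 4.88e-10, edgeR), and Gpx3, which encodes the secreted form, rose from 25.1, 25 and 24.5 CPM to 45.7, 47.8 and 46.5 CPM (0.91, adjusted p = 8.27e-22). Gpx7 and Gpx8 were lower, with log2 fold changes of -0.35 and -0.68. Among the transferases, Gstt2 fell from 37.6, 37.3 and 40.7 CPM to 12.5, 12.5 and 12 CPM, or -1.64 on the log2 scale (adjusted p = 4.84e-28, edgeR). Gstk1 and Gstm7, at much lower levels, each had a log2 fold change of -1.38. Gsto2, at under 1 CPM in both genotypes, was higher in Tnfaip2-/- EBs (1.74, adjusted p = 0.000341).

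GPX4 and TXNRD1 both contain selenocysteine, which is inserted by a machinery of its own. Of 8 genes listed under selenoprotein synthesis, 2 were higher, 5 lower and 1 not called, or 87.5% called beside 67.7% of all tested genes. Their median log2 fold change was -0.20. Sephs1, the most abundant of this list, was at 148, 149 and 147 CPM in the WT EBs and at 87, 91 and 89.5 CPM in the Tnfaip2-/- EBs. Whether its product takes part in the insertion of selenocysteine was not tested. It had a log2 fold change of -0.73 (adjusted p = 3.63e-25, edgeR). Sephs2, which encodes the synthetase that makes selenophosphate, had a log2 fold change of -0.18, with 34.9% of its exon sequence shared with another gene. Scly and Secisbp2 were lower (-0.41 and -0.33) and Eefsec, the elongation factor for selenocysteine, was higher (0.34).

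Superoxide dismutases and catalase act beside these systems. Of 5 such genes, counting Ccs, the copper chaperone of SOD1, 4 were tested, with 2 higher and 2 not called. Thus 50% were called, beside 67.7% of all tested genes. Sod1 was at 393, 379 and 400.5 CPM in the WT EBs and at 545, 573 and 549 CPM in the Tnfaip2-/- EBs, a log2 fold change of 0.51 without overlap (adjusted p = 2.12e-22, edgeR). Cat had a log2 fold change of 0.22, and Ccs was not called (0.07). Sod2, the mitochondrial enzyme, was not called either (-0.01, of either sign among the alternatives), and shares 20.8% of its exon sequence with other genes.

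Iron that heme oxygenase releases is stored in ferritin or exported. Of 15 genes of ferroptosis and iron handling, 8 were higher, 4 lower and 3 not called. Calls thus made up 80%, beside 67.7% of all tested genes, and the median log2 fold change was 0.34. Slc40a1, which encodes the iron exporter ferroportin, was at 6.57, 5.98 and 7.15 CPM in the WT EBs and at 14.6, 14 and 13.3 CPM in the Tnfaip2-/- EBs, or 1.09 on the log2 scale (adjusted p = 1.39e-15, edgeR). Gch1, whose product starts the synthesis of the antioxidant tetrahydrobiopterin, rose from 2.16, 2.01 and 2.51 CPM to 6.51, 5.98 and 6.09 CPM (1.47, adjusted p = 8.75e-14). Alox15, which encodes a lipoxygenase that oxidizes membrane lipids, fell from 3.04, 3.57 and 3.45 CPM to 1.06, 0.959 and 0.812 CPM (-1.82, adjusted p = 6.38e-12). In each of these genes, the samples of the genotypes did not overlap.

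On the side of iron uptake, Tfrc, the transferrin receptor gene and the most abundant of this list, had a log2 fold change of 0.46, and Steap3, which encodes an endosomal ferrireductase, one of 0.97. Ireb2 and Aco1 encode the iron regulatory proteins and moved apart, with log2 fold changes of 0.48 and -0.39. Ncoa4, which encodes the receptor that delivers ferritin for degradation, was higher (0.37), with 17.8% of its exon sequence shared with Gm6768. The ferritin genes themselves changed little, Fth1 by a log2 fold change of 0.10 and Ftl1 by one of -0.17. Of the Ftl1 exon sequence, 58.1% is shared with other genes, among them Gm10252 on the opposite strand. Acsl4, whose product activates polyunsaturated fatty acids for incorporation into lipids and so sensitizes cells to ferroptosis, was lower (-0.45). Dhodh, which encodes a mitochondrial enzyme that reduces ubiquinone, was lower as well (-0.66). Aifm2, which encodes the ubiquinone reductase FSP1, was not called (-0.17) and was called only without WT replicate 2 (-0.21).

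Of 25 other NRF2 targets, 21 were tested, of which 8 were higher, 10 lower and 3 not called. Among the tested targets 85.7% were called, beside 67.7% of all tested genes, and their median log2 fold change was -0.17. Gsta1, Osgin1, Aldh3a1 and Ugt1a6a, at under 1 CPM in both genotypes, were not tested. Ephx1, which encodes microsomal epoxide hydrolase, had the largest change among the targets. It rose from 1.99, 3.35 and 2.17 CPM in the WT EBs to 20.9, 21.4 and 19.7 CPM in the Tnfaip2-/- EBs, or 3.05 on the log2 scale (standard error 0.1045, adjusted p = 7.85e-29, edgeR). Abcc4, which encodes an exporter of organic anions, fell from 197.5, 204 and 199 CPM to 84, 83.2 and 86.4 CPM, or -1.24 on the log2 scale (adjusted p = 1.17e-34). Its relative Abcc1, which exports glutathione conjugates, was higher (0.47). Among the detoxifying enzymes, Cbr3 (-0.55), Gsta4 (-0.41) and Gstm1 (-0.31) were lower and Gstp1 was higher (0.15), and 18.5% of the sequence of Gstm1 and 33.5% of that of Gstp1 are shared with other genes.

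Glutathione reductase and thioredoxin reductase both draw on NADPH, for which several NRF2 targets encode enzymes. In the pentose phosphate pathway, Tkt was at 838, 819 and 820.2 CPM in the WT EBs and at 512, 513 and 517 CPM in the Tnfaip2-/- EBs, or -0.68 on the log2 scale (adjusted p = 4.97e-29, edgeR). The NADPH-forming enzymes of this pathway were lower too, with log2 fold changes of -0.35 for G6pdx and -0.21 for Pgd, while Taldo1 had one of 0.09. Of the G6pdx exon sequence, 16.6% is shared with other genes. Me1, which encodes the cytosolic malic enzyme, another source of NADPH, was at 55.8, 54.7 and 54.4 CPM and at 97.4, 93.8 and 93 CPM, respectively. Its log2 fold change was 0.79 (adjusted p = 6.81e-24, edgeR), although 27.9% of its exon sequence is shared with pseudogenes.

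**Figure D4:**
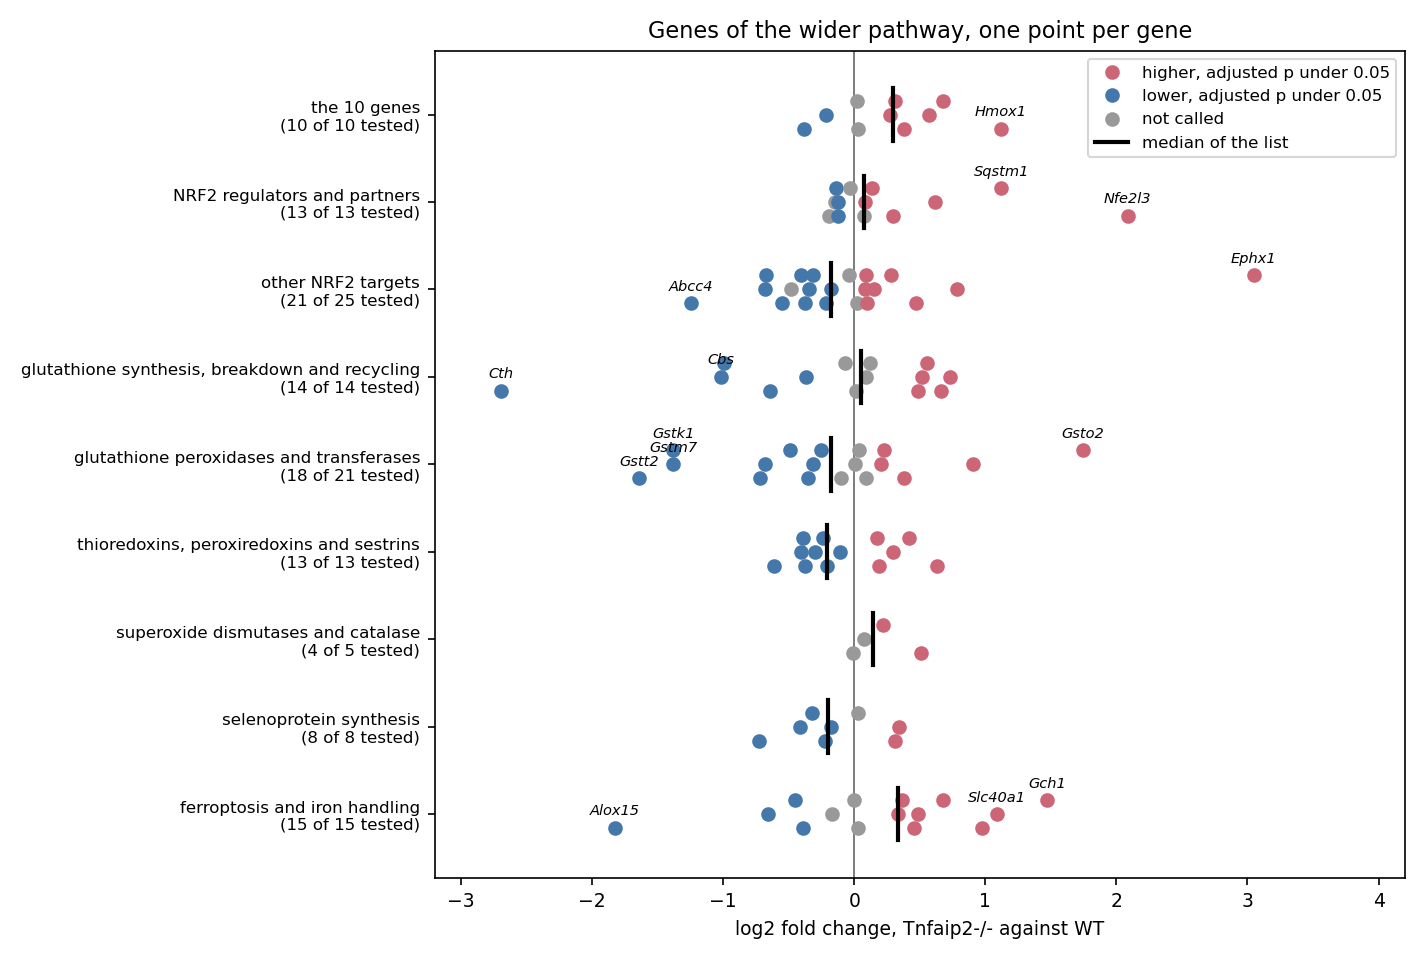
Log2 fold change in Tnfaip2-/- against WT EBs of each tested gene (points, coloured by the call at an adjusted p below 0.05) in the 10 genes and 8 further lists, with the median of each list (black bars). Medians run from -0.21 for thioredoxins, peroxiredoxins and sestrins to 0.34 for ferroptosis and iron handling, and genes that changed at least 2-fold are named.

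Between genes, levels were compared per exon length, as CPM per kilobase (RPKM). The length joins the exons of all annotated transcripts of a gene, so the order between genes depends on the annotation. In the WT EBs, Gpx4 had the highest mean RPKM (443), followed by Txnrd1 (60.5), Hmox1 (59.5) and Gsr (58.5), whose samples overlapped with those of the neighbour in this order. Then came Nfe2l2 (28.9 RPKM) and Gclc (21.9 RPKM), Nqo1 (17.1 RPKM) and Gclm (15.9 RPKM), which overlapped, Srxn1 (9.94 RPKM) and, lowest, Keap1 (2.79 RPKM). In the Tnfaip2-/- EBs, the mean RPKM was highest for Gpx4 (535), Hmox1 (129), Gsr (87) and Txnrd1 (46.3), and none of these overlapped with its neighbour. Below them were Nfe2l2 (29.4 RPKM), Gclc (22.2 RPKM) and Nqo1 (21.2 RPKM), the last 2 of which overlapped, and Srxn1 (15.9 RPKM), Gclm (13.7 RPKM) and Keap1 (3.62 RPKM). Hmox1, Gsr and Txnrd1, nearly level in RPKM in the WT EBs, were thus spread apart in the Tnfaip2-/- EBs, with Txnrd1 as the lowest of the 3. Summed over the 10 genes, the level was 1834, 1790 and 1828 CPM in WT EBs and, in Tnfaip2-/- EBs, 2069, 2107 and 2102 CPM, of which Gpx4 made up the largest part.

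By chromosome, Hmox1, Nqo1 and Gsr lie on chromosome 8, where the median log2 fold change of 951 tested genes was 0.07. Txnrd1 and Gpx4 share chromosome 10 (median -0.18 over 851 tested genes) and had opposite directions. Gclm lies on chromosome 3 (median -0.20 over 856 tested genes), Nfe2l2 and Srxn1 on chromosome 2 (0.08 over 1411 tested genes), and Keap1 and Gclc on chromosome 9 (0.09 over 958 tested genes).

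The genes most like Hmox1 and Txnrd1 over the 6 samples were sought among 10118 genes whose mean reached 10 CPM, by Pearson's r of log2 CPM. For Hmox1 these were Slc25a4 (r = 0.99992), Anxa7 (0.99989) and Pgk1 (0.99986), with log2 fold changes of 0.88, 0.70 and 0.60. Txnrd1 was most like Aco1 (r = 0.99993), Rprd1a (0.99981) and Qser1 (0.99957), with log2 fold changes of -0.39, -0.29 and -0.47. The points fall into the 2 genotypes, and 802 genes had an r above 0.99 with Hmox1 and 677 with Txnrd1, so that these are descriptions of a pattern that many genes had.

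Markers of cell types also differed between the genotypes, and their part in the results above was not tested. The counts of markers below stand beside 34% of all tested genes called higher and 33.7% called lower. Of 11 markers of naive and general pluripotency, 6 were higher and 5 lower in Tnfaip2-/- EBs. Their summed level was 2448, 2427 and 2419 CPM in WT EBs and, in Tnfaip2-/- EBs, 2419, 2444 and 2458 CPM. Pou5f1 was the most abundant in WT EBs (means 760 and 419 CPM) and Zfp42 in Tnfaip2-/- EBs (229 and 428 CPM). For the primed state, 4 of 6 markers were lower and 2 not called, and the sum was 947.5, 948 and 939.9 CPM against 494, 486 and 489 CPM. Most of this fall was that of Dnmt3b (means 598 and 173 CPM), the most abundant in WT EBs, whereas Otx2, the most abundant in Tnfaip2-/- EBs, was not called (224 and 223 CPM). Of 8 mesoderm and primitive streak markers, 7 were lower and 1, Hand1, was higher, and the sum was 77.9, 76.8 and 77.6 CPM in WT EBs and, in Tnfaip2-/- EBs, 22.2, 19.7 and 23.9 CPM. Eomes was the most abundant of these over all samples (means 28.4 and 18.5 CPM), whereas in WT EBs it was T (34.6 CPM), which was at 0.134 CPM in Tnfaip2-/- EBs. Of 8 endoderm markers, led by Gata4, 2 were higher, 3 lower and 3 not called (28.8, 31.1 and 29.5 CPM against 24.4, 25.9 and 26.5 CPM), and Afp was under 1 CPM in both genotypes. Neuroectoderm markers, 5 of 6 of which were tested, with 1 higher and 4 lower, summed to 175, 176.5 and 164 CPM against 131, 132 and 135 CPM. Tubb3, the most abundant, was the 1 higher marker (log2 fold change 0.37), whereas Sox1 fell from a mean of 63.7 to one of 20.8 CPM, and Hes5 was under 1 CPM in both genotypes.

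Trophoblast markers, 5 of 6 of which were tested, with 4 higher, Hand1 again among them, and 1 lower, summed to 27, 24.5 and 26 CPM in the WT EBs and to 180.1, 177 and 179 CPM in the Tnfaip2-/- EBs, most of the latter being Tfap2c. Cdx2 was the 1 lower marker, with means of 1.57 and 0.0451 CPM (adjusted p = 3.55e-13, edgeR). Its counts in the Tnfaip2-/- EBs were all under the detection floor of 3 counts. Elf5, a defining trophoblast gene, was under 1 CPM in both genotypes. Of 8 fibroblast markers, led by Pdgfra, 5 were tested, with 3 lower and 2 not called (14.6, 16.6 and 14.6 CPM against 10.7, 10.5 and 10.8 CPM), and Col3a1, Dcn, Lum and Postn were under 1 CPM in both genotypes. All 5 blood cell markers, led by Hba-a1 over all samples and by Tal1 in WT EBs, were under 1 CPM in both genotypes, with Hbb-y at 0 in every sample and a sum of 1.28, 1.29 and 1.15 CPM against 0.924, 0.868 and 1.31 CPM. Only Tal1 of these was tested, and it was lower.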

How the data were processed

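The authors' raw counts per gene were used as deposited. According to the submitters' processing notes and the study's methods, reads of 51 bases were mapped to GRCm38 with TopHat2 2.1.0 and counted with featureCounts 1.5.0, with uniquely mapped reads only. A strand setting is not given in the sources used here. Counts were normalized by TMM and tested in R 4.3.3 with edgeR 4.0.16 (robust quasi-likelihood fit, filterByExpr with a minimum count of 10, glmTreat against 1.5-fold), with adjustment over the 17849 genes tested. The procedure was tested on simulated counts. CPM used TMM-scaled totals, and 3 counts correspond to 0.126 to 0.138 CPM. RPKM used GENCODE M21 exon lengths. Symbols were matched for 52403 of 52636 identifiers. Standard errors were derived from the F statistic. The study's methods call the samples biological replicates, without saying whether the cultures were started independently, so p-values measure the spread between these samples only. The 10 genes and all lists were chosen with earlier results of these data known. The genes named were the 10 genes, every gene of the pathway lists that was called, with at least 1 CPM and a 2-fold change, the 2 most abundant tested genes of each pathway list, and the 3 genes most like Hmox1 and Txnrd1. Markers were described by list, with the most abundant gene and the genes under 1 CPM in both genotypes. Other genes, T, Cdx2, Hand1, Sox1, Zfp42, Otx2 and Tal1 included, were named for their role after their values were seen. Alternatives were DESeq2 1.42.0 with its own size factors and filtering, the legacy fit, relative log expression factors, no factors, no filter, a minimum count of 50, the replicate number as a block, and leaving out each sample.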

Additional observations from a re-analysis of the deposited data

How the results depend on the processing

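All 13 alternatives called 8 of the 10 genes, the same 8 as the main analysis. For the 117 tested genes named, 1512 alternative log2 fold changes were computed. Of these, 1482 stayed on their side of 0 and of the threshold, 14 lost a call (Mafg, Bach1, Prdx5, Gm16754 and Gm6768) and 6 gained one (Prdx1, Aifm2 and Glrx2). Among genes without a call, Sod2 turned to 0.0221 and Otx2 to 0.0193 without normalization factors. Over the leave-one-out fits, Sod2 ranged from -0.0549 to 0.0199 and Blvrb from -0.0072 to 0.0341. Chac2 turned to -0.0054 without the filter and ranged from -0.0468 to 0.084 over the leave-one-out fits, and Gata4 from -0.1062 to 0.0245. With DESeq2, where its own size factors and filtering replaced TMM and the expression filter, 1723 genes instead of 2798 changed by over 1.5-fold. Of the 10 genes, 1 instead of 2 passed that test with DESeq2, the legacy fit, relative log expression factors, no filter and the replicate block, and 1 to 2 when a sample was left out. Srxn1 was the gene lost wherever 1 gene passed, and the cause was not tested. Without WT replicate 3 its call was kept (adjusted p = 0.0135, edgeR's test against 1.5-fold). With replicate numbers as a block, 5937 genes were higher and 5904 lower, against 6076 and 6008, and no call of the 10 genes at an adjusted p of 0.05 changed, while Srxn1 had an adjusted p of 0.0633 in the test against 1.5-fold. Same-numbered samples did not deviate together (correlations of -0.165, -0.159 and -0.135, against 0.0232 to 0.148 for different numbers), so the numbers do not pair the samples. Within genotypes, squared differences between samples were 1.4 to 2.09 times those of sampling noise. Permuting 3 against 3 samples cannot give a p below 0.1.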
